A study of Mus musculus with 6 samples.

Results

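The membrane of the red cell rests on a protein skeleton, and 8 genes of this skeleton and of the proteins that anchor it or carry blood group antigens were followed in mouse bone marrow. They are Sptb (β-spectrin), Ank1 (ankyrin 1), Epb41 (protein 4.1), Epb42 (protein 4.2), Slc4a1 (band 3), Gypc (glycophorin C), Rhag (the Rh-associated glycoprotein) and Kel (the Kell glycoprotein). They were taken by symbol from 45706 Ensembl identifiers with raw read counts, and all 8 were found. The series holds RNA-seq of mouse bone marrow cultures in 6 libraries, and sets those grown in medium conditioned by tumour cells against controls. Each of 4 libraries had medium from another line of VpR clear cell renal cell carcinoma (ccRCC) cells, named VpR83, VpR99, VpR126 or VpR2020, and 2 libraries had control medium (replicates 1 and 2). The 4 lines serve as the replicates of conditioned medium, so no line can be tested against another. The column headers of the VpR83, VpR99 and VpR126 libraries also carry the tags Ctrl, T1 and LT2, which no label explains, so the 4 media may differ in more than the line. The labels give no strain, age, sex or time in culture. Nor do they name separate animals or cultures, and a p-value here covers only the spread among 6 libraries, which can be technical. Control medium is what the sample labels give for the controls, whereas the series' own design line sets the cultures against fresh marrow, so medium and time in culture cannot be told apart.

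Spectrin chains assemble into long tetramers that are tied together at short actin filaments, where protein 4.1 also links them to glycophorin C. Ankyrin ties β-spectrin to band 3, the chloride and bicarbonate exchanger, and protein 4.2 steadies that contact. Rhag forms the core of the Rh complex, an ammonia channel, and Kell is an endopeptidase that is linked to the transport protein XK. Red cell precursors in the marrow make these proteins in large amounts, and inherited loss of spectrin, ankyrin, band 3 or protein 4.2 gives fragile, round red cells. Spectrin, ankyrin and protein 4.1 genes are also used in other cells, whereas band 3, Rhag and protein 4.2 are mainly known from red cells.

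Promoters are shown because most of the 8 genes move together below, and Epb41 is shown as the one that does not. RefSeq promoter windows of build GRCm38.p6, which run from 250 bases before to 50 bases after a start site, were found for 5 of the 8 genes (Rhag, Kel, Epb42, Sptb and Epb41, with 3 windows for Epb41, of which the first listed is printed). Capitals mark matches, on either strand, of the GATA type, the motif of the erythroid factor GATA1 (searched as AGATAA or as AGATAG or as TGATAA or as TGATAG). They also mark matches of the KLF1 type, the motif of another erythroid factor (searched as CCNCNCCCN). Matches of the KLF1 type overlap each other in places. The windows are chr17:40810899-40811198 on the plus strand for Rhag and, on the minus strand, chr6:41704276-41704575 for Kel, chr2:121036828-121037127 for Epb42, chr12:76710498-76710797 for Sptb and chr4:132075264-132075563 for Epb41. Each reads 5′ to 3′ on the gene's own strand.
Rhag: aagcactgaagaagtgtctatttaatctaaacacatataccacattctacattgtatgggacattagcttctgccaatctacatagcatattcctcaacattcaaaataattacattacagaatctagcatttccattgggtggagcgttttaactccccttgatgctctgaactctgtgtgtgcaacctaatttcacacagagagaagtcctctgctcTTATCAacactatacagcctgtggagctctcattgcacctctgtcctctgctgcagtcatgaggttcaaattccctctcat
Kel: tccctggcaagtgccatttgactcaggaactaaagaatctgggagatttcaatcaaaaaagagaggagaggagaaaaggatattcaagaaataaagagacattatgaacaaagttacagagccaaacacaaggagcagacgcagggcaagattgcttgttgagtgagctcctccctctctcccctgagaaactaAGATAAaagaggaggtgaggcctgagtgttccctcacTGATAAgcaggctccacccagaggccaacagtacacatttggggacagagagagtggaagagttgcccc
Epb42: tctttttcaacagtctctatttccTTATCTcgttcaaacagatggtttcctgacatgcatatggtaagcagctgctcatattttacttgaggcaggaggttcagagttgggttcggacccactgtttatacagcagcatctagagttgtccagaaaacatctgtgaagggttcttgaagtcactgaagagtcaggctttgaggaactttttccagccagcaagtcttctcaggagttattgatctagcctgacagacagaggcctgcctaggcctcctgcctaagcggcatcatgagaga
Sptb: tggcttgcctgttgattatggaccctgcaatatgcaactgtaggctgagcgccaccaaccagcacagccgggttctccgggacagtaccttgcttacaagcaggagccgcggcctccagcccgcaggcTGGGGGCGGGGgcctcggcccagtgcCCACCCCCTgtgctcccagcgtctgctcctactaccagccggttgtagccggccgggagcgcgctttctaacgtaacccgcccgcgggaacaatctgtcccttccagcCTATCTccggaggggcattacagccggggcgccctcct
Epb41: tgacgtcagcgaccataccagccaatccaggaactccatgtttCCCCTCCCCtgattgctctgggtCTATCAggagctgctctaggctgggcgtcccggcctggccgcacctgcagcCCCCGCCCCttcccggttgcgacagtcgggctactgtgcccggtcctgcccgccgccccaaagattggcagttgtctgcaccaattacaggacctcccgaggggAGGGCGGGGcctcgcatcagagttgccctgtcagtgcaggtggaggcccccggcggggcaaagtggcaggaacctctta
The Kel window holds 2 matches of the GATA type, and those of Rhag, Epb42, Sptb and the first Epb41 window hold 1 each. With the start base counted as 0, the matches of Kel begin at -56 and -19, that of Rhag at -31, that of Epb42 at -226 and that of Sptb at 12. Of all 32851 windows of 300 bases, 29.8% hold a match of this type. Matches of the KLF1 type lie in the Sptb window (3) and in the first Epb41 window (3), and none lies in those of Rhag, Kel or Epb42, while 49.4% of all windows hold one. Since Epb41 carries both types, the letters alone do not separate it from the others. A match is a description of the sequence and not a measured binding site.

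Total counts were 19412158 to 129120559 in the conditioned libraries, the deepest being VpR99, and 18629708 and 27448621 in the controls. At 3 counts, the most that a count of 0 allows, the limit was 0.0243 CPM in VpR99 and 0.110 to 0.166 CPM in the other conditioned libraries (counting error only, as for all intervals here). Levels are given as CPM (counts scaled to library size, with TMM factors) and differences as log2 fold changes, conditioned over control medium, ± SE. They come from the quasi-likelihood test of edgeR, and adjusted p-values are Benjamini-Hochberg values over 15141 genes, called below 0.05. Of all genes tested 42.2% were called, 22.5% higher and 19.7% lower. Every conditioned library lay above both controls for 32.0% of genes and below both for 33.3%. Higher genes were 53.3% of the calls. Upper-quartile scaling put this share at 40.0% and shifted the median over all genes to -0.22 on the log2 scale, against -0.01 with TMM. Unscaled library totals put the share at 38.6% and the median at -0.26. Summed over marker lists, erythroid markers other than the 8 genes stood at 12.9 to 26.7 CPM in conditioned libraries and at 2614 to 5626 CPM in controls. Macrophage markers summed to 5235 to 13633 CPM in conditioned libraries, against 419.7 to 435 CPM in controls. Neutrophil markers summed to 1719.8 to 7698 CPM in conditioned libraries, against 35330 to 36924 CPM in controls. B cell markers summed to 43.0 to 361 CPM in conditioned libraries, against 976 to 1130.2 CPM in controls, and T and NK cell markers to 0.915 to 2.41 CPM in conditioned libraries, against 38.4 to 41.7 CPM in controls. The lists stand for cells the cultures could hold, and their part in the results below was not tested. The 5 epithelial markers for carried-over tumour cells summed to 3.43 to 17.5 CPM in conditioned libraries, against 17.0 to 20.3 CPM in controls, and most of that was Cdh1. Epcam, Krt18 and Cdh1 had reads in every conditioned library, with Cdh1 in VpR99 (17.3 CPM) above both controls (16.7 and 13.3 CPM). Krt8 and Krt19 had 0 counts in every conditioned library, and in controls Krt8 had 2 and 5 counts and Krt19 had 0, so these 2 genes say little.

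Of the 8 genes, 7 were called lower in conditioned medium and 1, Epb41, was not called, beside 19.7% of all genes called lower. The same 7 had every conditioned library below both controls, beside 33.3% of all genes. Epb42, Slc4a1, Rhag and Kel passed the low-count filter through the controls alone, so that a call of these 4 was bound to be of a lower level, and the count of 7 is a description. The 8 genes fell into 3 kinds by what remained in conditioned medium. Slc4a1, Rhag, Kel and Epb42 were at or near 0. Sptb and Ank1 were at a few percent of their control level, and Gypc and Epb41 remained well measured in every library. In bulk marrow, fewer cells of a type and less RNA per cell cannot be told apart.

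**Figure D1:**
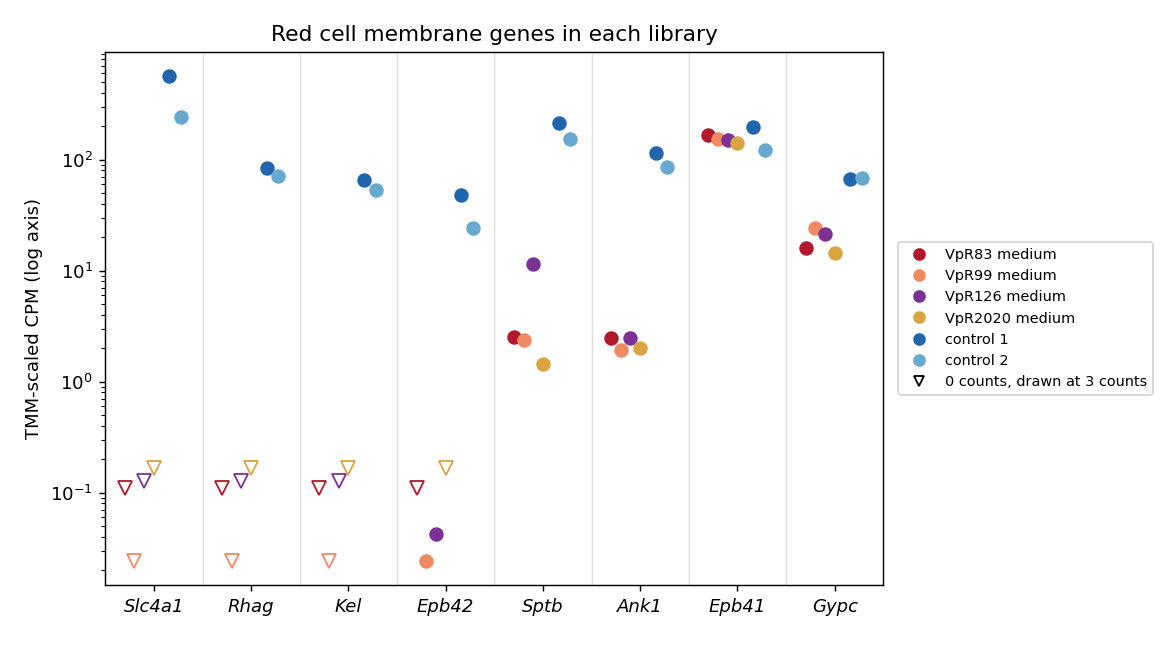
TMM-scaled CPM on a log axis for the 8 genes in the 4 conditioned libraries (left for each gene) and the 2 controls (right). 1 point is 1 library, and open triangles are libraries with 0 counts, drawn at 3 counts. Slc4a1, Rhag and Kel have 0 counts in all 4 conditioned libraries, Sptb stands apart in VpR126 medium, and Epb41 lies between its 2 controls in every conditioned library.

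Slc4a1, Rhag and Kel were not detected in any conditioned library. Slc4a1 (ENSMUSG00000006574, chromosome 11, 102348824 to 102366203, minus strand, GRCm38) had 0 counts in each of the 4 conditioned libraries, against 565 CPM (16953 counts) in control replicate 1 and 241 CPM (5126 counts) in control replicate 2. Band 3 transcripts were therefore at least 27612-fold lower, taking 3 counts over the whole conditioned group (edgeR adjusted p = 0.0017). In the deepest library, VpR99, the limit corresponded to 0.00604% of the control mean, and in the other 3 to between 0.0273% and 0.0412%. The bound rests in part on depth and on 1 control, being 9889 without VpR99, 13514 with VpR99 thinned to the depth of VpR126, and 15539 without control replicate 1.

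Rhag (ENSMUSG00000023926, chromosome 17, 40811126 to 40840754, plus strand) had 0 counts in every conditioned library, against 83.7 and 71.6 CPM in control replicates 1 and 2, and was at least 5046-fold lower (edgeR adjusted p = 0.00061). Kel (ENSMUSG00000029866, chromosome 6, 41686330 to 41704339, minus strand) likewise had 0 counts in every conditioned library, against 65.0 and 53.1 CPM in the controls, and was at least 3851-fold lower (edgeR adjusted p = 0.00069). For both genes the controls lay close together and no conditioned library held a read. Without VpR99 the bounds were 1807 for Rhag and 1379 for Kel, and with VpR99 thinned 2469.7 and 1884.5. Unlike band 3, whose level differed between the controls by more than that of either gene, Rhag and Kel kept bounds within 1.5 times when either control was left out.

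Epb42 (ENSMUSG00000023216, chromosome 2, 121017891 to 121037072, minus strand) encodes a protein with the fold of a transglutaminase but without its enzyme activity. It had 0, 3, 1 and 0 counts in the VpR83, VpR99, VpR126 and VpR2020 libraries, which is 0.0243 CPM in VpR99 and 0.0422 CPM in VpR126, against 48.0 and 24.4 CPM in control replicates 1 and 2. Its log2 fold change was -10.60 ± 0.56 (edgeR adjusted p = 0.00021), and no conditioned library came near a control. With 1 count in VpR126 the counting interval there ran from 0.00107 to 0.235 CPM, so the 4 lines could not be ordered for this gene at this depth.

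The skeleton genes Sptb and Ank1 were low but present under every medium. Sptb (ENSMUSG00000021061, chromosome 12, 76580488 to 76710547, minus strand) had 2.53, 2.36, 11.4 and 1.44 CPM under VpR83, VpR99, VpR126 and VpR2020 medium, against 212 and 152 CPM in control replicates 1 and 2. All 4 conditioned libraries lay far below both controls, and VpR126 lay above the other 3. The log2 fold change of Sptb was -5.37 ± 0.82 (edgeR adjusted p = 0.0039), and -6.39 without VpR126 (adjusted p = 0.00039, range over the alternatives 4.4e-11 to 0.031). Ank1 (ENSMUSG00000031543, chromosome 8, 22974844 to 23150497, plus strand) had 2.45, 1.93, 2.49 and 1.99 CPM under the same 4 media, against 114 and 85.6 CPM in the controls. These 4 values lay within 1.93 and 2.49 CPM, at 1.93% to 2.495% of the control mean, and the log2 fold change was -5.50 ± 0.20 (edgeR adjusted p = 6.3e-05). Sptb stood at 0.789% to 1.39% of its control mean in 3 libraries and at 6.26% in VpR126. The reads of Sptb and Ank1 in conditioned medium, 656 and 400 in all, stood beside 0 reads of Slc4a1, Rhag and Kel in the same libraries.

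Gypc and Epb41, which meet at the actin junction, gave most of the remaining reads of the 8 genes. Gypc (ENSMUSG00000090523, chromosome 18, 32528322 to 32560034, minus strand) had 16.1, 24.4, 21.2 and 14.4 CPM under VpR83, VpR99, VpR126 and VpR2020 medium, against 67.3 and 68.5 CPM in the controls. The groups did not overlap, the conditioned libraries stood at 21.2% to 35.9% of the control mean, and the log2 fold change was -1.83 ± 0.23 (edgeR adjusted p = 0.0020). Epb41 (ENSMUSG00000028906, chromosome 4, 131923413 to 132075321, minus strand) had 168, 154, 152 and 141 CPM under the 4 media, against 197 and 123 CPM in control replicates 1 and 2. Every conditioned library lay between the 2 controls, and the log2 fold change of -0.06 ± 0.21 was not called (edgeR adjusted p = 0.83). The controls differed from each other by more than the conditioned libraries did, so a change of Epb41 smaller than that spread could not be seen, and its sign turned without control replicate 1 (log2 fold change 0.31, adjusted p = 0.33, range over the alternatives 0.27 to 0.98). The deposited counts are per gene, so a switch between the many forms of protein 4.1 was not analysed here.

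Levels can be compared between genes only per length. As length-scaled level (TPM, counts per kilobase of merged exons scaled to the same total in each library), Epb41 had 28.1 ± 3.30, Gypc 23.7 ± 5.47, Sptb 1.05 ± 1.09 and Ank1 0.478 ± 0.0791 TPM in conditioned medium (SD, n = 4). On this length Epb41 and Gypc did not differ beyond their spread there (Gypc was above Epb41 in VpR99). Nor did Sptb and Ank1 (Ank1 was above Sptb in VpR2020). In controls the order was another one, with Slc4a1 first at 204 ± 107 TPM, then Rhag (83.3 ± 4.82), Gypc (73.3 ± 4.81), Kel (53.3 ± 4.77), Sptb (37.5 ± 6.77), Epb41 (25.0 ± 6.86), Ank1 (18.5 ± 2.77) and Epb42 (16.6 ± 6.87 TPM, SD, n = 2). The ranges of Epb41 and Ank1 overlapped in the controls, as did those of Ank1 and Epb42, so these neighbours did not differ beyond their spread. With the longest annotated transcript as length, Epb41 (38.3 TPM) stood above Sptb (34.9 TPM) in controls, and Ank1 had 23.8 TPM. In conditioned medium that length gave Epb41 42.1 TPM and Gypc 19.8 TPM. The place of Epb41 among these genes thus depended on the length taken.

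The higher Sptb level under VpR126 medium stood beside higher levels of some genes of several other cell types in the same library. Among these types were megakaryocytes, macrophages and B cells, though not all of their markers were highest there. With 270 counts the counting interval of Sptb in VpR126 was 10.1 to 12.9 CPM, above that of the next library, VpR83, at 1.97 to 3.20 CPM. Itga2b, the platelet integrin gene, had 154 CPM in VpR126 and 2.60 to 7.63 CPM in the other 3 conditioned libraries, against 36.2 and 37.6 CPM in controls. Gp1ba, the gene of a platelet receptor for von Willebrand factor, had 41.2 CPM in VpR126 and 0.696 to 1.38 CPM in the other 3, against 3.93 and 4.98 CPM in controls. Unlike Sptb, both genes exceeded the controls in VpR126. Gp9, Gp1bb and Treml1 were also highest there among the conditioned libraries, whereas the platelet chemokine genes Pf4 and Ppbp were not. The 7 megakaryocyte and platelet markers reported here summed to 669 to 2346 CPM in conditioned libraries and to 66.4 and 75.1 CPM in controls, and most of that sum in each conditioned library was Pf4. Gata1, the factor shared by erythroid cells and megakaryocytes, had 10.6 CPM in VpR126 and 0 to 0.498 CPM in the other 3, against 77.5 and 77.8 CPM in controls. Ank1 (2.49 CPM), Epb42 (1 count), Slc4a1, Rhag and Kel (0 counts) did not stand apart in VpR126. The 7 markers of erythroblastic island macrophages summed to 934 to 1755 CPM in conditioned libraries, against 330 and 298 CPM in controls. They did not move together, as 3 were called higher, 2 lower and 2 were not called, beside 22.5% and 19.7% of all genes. Vcam1 and Timd4 were the 2 called lower, with 33.5 and 0.296 CPM in VpR126. In controls Vcam1 had 122 and 96.3 CPM, and Timd4 had 2.40 and 2.16 CPM. Of the 7 markers, 5 were highest in VpR126 among the conditioned libraries. Of these, Cd163, a haemoglobin scavenger receptor gene, had 79.0 CPM in VpR126 and 6.75 to 12.7 CPM in the other 3, against 23.0 and 21.9 CPM in controls. Spic, a transcription factor gene of iron-recycling macrophages, had 12.6 CPM in VpR126 and 0.110 to 0.941 CPM in the other 3, against 8.07 and 7.43 CPM in controls. The macrophage and B cell lists also summed highest in VpR126 among the conditioned libraries. The macrophage markers Mrc1, Cd68 and Trem2 and the B cell marker Vpreb1 were not highest there. Mrc1 was lowest in VpR126, at 1172 CPM against 1266 to 1458 CPM in the other 3. The erythropoietin receptor gene Epor had 4.27 CPM in VpR126 and 0.0732 to 1.88 CPM in the other 3, against 41.7 and 45.0 CPM in controls. The list of 16 erythroid markers that holds Gata1 and Epor summed to 26.7 CPM in VpR126 and to 12.9 to 14.5 CPM in the other 3. Not all of its genes were highest there. Bpgm was lowest in VpR126 (8.36 CPM, against 11.3 to 12.6 CPM in the other 3), as was Klf1 (0.0422 CPM, on 1 count, against 0.0892 to 0.166 CPM). Basophil and mast cell markers, a list added after the values were seen, also summed highest in VpR126 among the conditioned libraries, at 87.2 CPM, against 844 and 749.8 CPM in controls. Eosinophil markers, the other list added then, summed highest in VpR99, at 66.6 CPM, with 57.3 CPM in VpR126 and 382 and 112 CPM in controls. The neutrophil list was also highest in VpR99, at 7698 CPM, with 3803 CPM in VpR126, whereas the T and NK cell list was highest in VpR126 (2.41 CPM). The part of these cells in the Sptb reads was not tested.

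**Figure D2:**
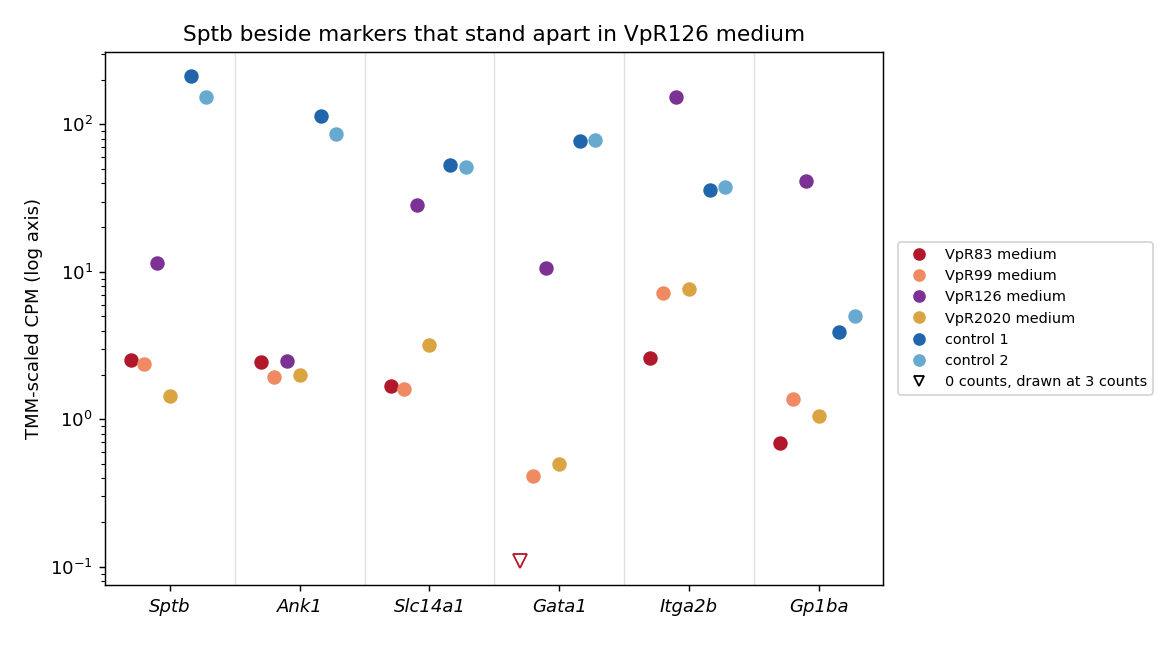
TMM-scaled CPM on a log axis for Sptb, Ank1, Slc14a1, Gata1 and 2 megakaryocyte genes in each conditioned library (left) and in each control (right). Open triangles are libraries with 0 counts, drawn at 3 counts. In VpR126 medium Sptb (11.4 CPM), Slc14a1 (28.5 CPM) and Gata1 (10.6 CPM) lie above the other 3 conditioned libraries and below the controls, whereas Itga2b and Gp1ba lie above the controls too. These genes were chosen for the plot after their values were seen.

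Other skeleton genes ranged from near 0 (Add2) to higher than in controls (Mpp1). Of 10 skeleton and adaptor genes tested 4 were called lower, 1 higher and 5 were not called, beside 19.7% of all genes called lower and 22.5% higher, with a median log2 fold change of -0.17, beside -0.01 over all genes. Add2 (β-adducin), the 1 gene of the 10 that passed the filter through the controls alone, had 1 count in each conditioned library, against 61.0 and 55.7 CPM in controls (log2 fold change -11.15 ± 0.41, edgeR adjusted p = 6.3e-05, and -10.22 without VpR99). Dmtn (dematin, an actin bundler) had 0.187 to 0.803 CPM in conditioned libraries, against 58.9 and 42.7 CPM in controls (-6.57). Add3 (γ-adducin) had 81.1 to 123 CPM, against 187 and 189 CPM in controls (-0.99), and was not called without control replicate 1 or 2 (adjusted p = 0.061 and 0.070, range 8.0e-05 to 0.070). The tropomodulin gene Tmod1 changed by -1.99 and lost its call without either control, VpR99, VpR126 or VpR2020 (adjusted p up to 0.31, range 0.0048 to 0.31), with -1.11 without control replicate 1. Add1 (α-adducin) had 211 to 239 CPM in conditioned libraries, against 278 and 256 CPM in controls, and was not called (-0.22), but was called lower with upper-quartile scaling or library totals only (adjusted p = 0.037 with either, range 0.037 to 0.59). Mpp1, the gene of the adaptor p55, which binds protein 4.1 and glycophorin C, was higher, with 258 to 334 CPM, against 117 and 109.8 CPM in controls (1.37). Actb, Tpm1, Tpm3 and Stom were not called. Without control replicate 1, and likewise without replicate 2, 2 of these genes were called lower.

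**Figure D3:**
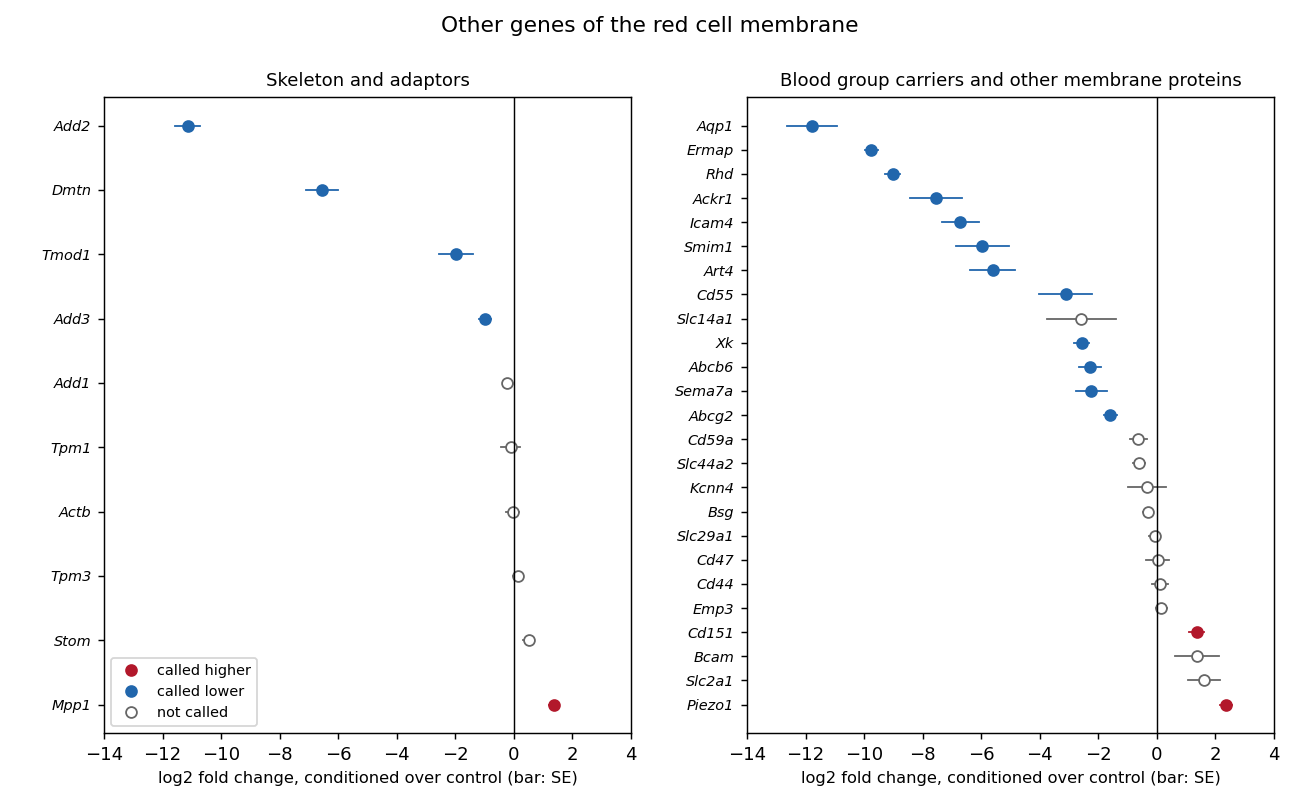
Log2 fold change, conditioned over control medium, with its SE for 10 skeleton and adaptor genes and 25 blood group carriers and other membrane proteins, sorted within each panel. Filled points were called higher or lower and open points were not called. Add2 (-11.15) and Dmtn (-6.57) lie at one end of the skeleton genes and Mpp1 (1.37) at the other.

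Among blood group carriers and other red cell membrane proteins, 12 of 25 were called lower, 2 higher and 11 were not called, beside 19.7% of all genes called lower and 22.5% higher. The median log2 fold change was -1.60, beside -0.01 over all genes, and 8 of the 25 passed the filter through the controls alone. Rhd, which partners Rhag in the Rh complex, had 0.146 to 0.284 CPM in conditioned libraries, against 129 and 106 CPM in controls (-9.03 ± 0.27, edgeR adjusted p = 3.1e-05), so it was still detected where Rhag was not. Xk, which partners Kell, had 3.04 to 4.85 CPM in conditioned libraries, against 20.3 and 22.8 CPM in controls (-2.57). Ermap, the Scianna antigen, had 0.127 to 0.256 CPM, against 188 and 179.6 CPM in controls (-9.75). Aqp1, the water channel of the Colton antigen, had 0 to 0.465 CPM, against 440.3 and 345.5 CPM in controls, with log2 fold changes of -11.78, -13.14 without VpR126 and -11.10 without VpR99. Slc14a1, the urea channel of the Kidd antigen, had 28.5 CPM in VpR126 and 1.60 to 3.21 CPM in the other 3, against 52.7 and 51.2 CPM in controls. It was not called (-2.58, adjusted p = 0.12) but was called lower without VpR126 or by voom (-4.61 and -4.08, adjusted p = 0.00095 and 0.0085, range 0.00095 to 0.30). Piezo1, a mechanically gated channel of red cells and many other cells, was higher, with 148 to 215 CPM, against 38.1 and 32.5 CPM in controls (2.36). Cd151, a tetraspanin gene, had 30.0 to 48.3 CPM, against 12.6 and 16.7 CPM in controls (1.36), and was not called without control replicate 1 (adjusted p = 0.074, range 1.7e-05 to 0.074). Cd44 and Cd47, which leukocytes share, were not called (0.10 and 0.03), and both values turned negative with upper-quartile scaling or library totals only.

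Genes of the same families, most of them known mainly from other cells, were called higher more often than lower. Of 21 tested 10 were called higher, 3 lower and 8 were not called, beside 22.5% of all genes called higher and 19.7% lower. The median log2 fold change was 1.36. Of the 21, 2 passed the filter through the conditioned libraries alone, among them Slc4a3, and 2 through the controls alone, among them Rhcg. A call of Slc4a3 was thus bound to be of a higher level and a call of Rhcg of a lower one, and both were called so. The largest log2 fold changes were those of 2 relatives of protein 4.1, Epb41l1 and Epb41l3. Epb41l1 had 51.3 to 70.8 CPM in conditioned libraries, against 2.17 and 1.83 CPM in controls (4.86 ± 0.24, edgeR adjusted p = 0.00017), and Epb41l2 had 170.2 to 211 CPM, against 54.0 and 49.0 CPM in controls (1.91 ± 0.16). Epb41l3 had 13.8 to 90.3 CPM, against 2.93 and 3.24 CPM in controls (3.87), and was not called without control replicate 1 or 2 (adjusted p = 0.097 and 0.087, range 1.0e-07 to 0.097). Epb41l4b was lower, with 0.885 to 2.70 CPM, against 12.6 and 11.3 CPM in controls (-2.92). Sptan1, a spectrin of other cells, had 247.5 to 295.5 CPM, against 173 and 153 CPM in controls (0.69, adjusted p = 0.013), but lost its call with library totals only and without control replicate 1 or 2 (adjusted p = 0.057, 0.078 and 0.12, range 0.00025 to 0.12). Sptbn1, the β-spectrin of other cells, was not called (0.41, adjusted p = 0.090), and neither were Ank2 and Ank3. Slc4a7, a bicarbonate transporter of the family of band 3, rose with 44.1 to 51.0 CPM, against 21.7 and 15.8 CPM in controls (1.36). Tgm2, an active transglutaminase, had 51.4 to 207 CPM, highest in VpR126, against 19.6 and 14.9 CPM in controls. Its log2 fold change was 2.54 (adjusted p = 0.026), or 1.93 without VpR126, and it was not called without control replicate 1 or 2 or without a low-count filter (adjusted p = 0.12, 0.15 and 0.077, range 0.00013 to 0.15). With a single control in the fit, either of the pair, 3 genes of these families were called higher and 1 lower.

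The 2 control libraries, in which all 8 genes could be measured, differed from each other gene by gene. The CPM ratio of control replicate 1 over replicate 2 was 2.35 for Slc4a1, 1.97 for Epb42, 1.60 for Epb41, 1.39 for Sptb, 1.33 for Ank1, 1.22 for Kel, 1.17 for Rhag and 0.982 for Gypc. The counting intervals of Slc4a1 (2.27 to 2.42) and Epb42 (1.78 to 2.18) lay above those of the other 6, whereas that of Ank1 overlapped those of Sptb and Kel, and that of Kel overlapped that of Rhag. Over all genes with reads in both controls the median ratio was 0.999, and 5% to 95% of genes lay from 0.6304 to 1.79. Among the other erythroid markers, the 4 globin genes (2.39 to 3.15), the haem synthesis gene Alas2 (2.67) and Bpgm (2.41), whose enzyme makes a regulator of oxygen release, had the highest ratios. The ratios of the transcription factor genes Gata1 (0.995) and Klf1 (0.873) and of the receptor gene Epor (0.927) were the lowest. Slc4a1 thus lay just below the globins, Epb42 between Hba-a1 (2.39) and Trim10 (1.73), and Gypc beside Gata1. High ratios were not confined to erythroid genes. Of the eosinophil markers, Epx had 4.87 and Prg2 3.91, whereas Siglecf, Ccr3 and Il5ra had 0.879 to 1.28. Such a ratio sets 1 library against another, is no comparison of conditions and has no replicates.

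**Figure D4:**
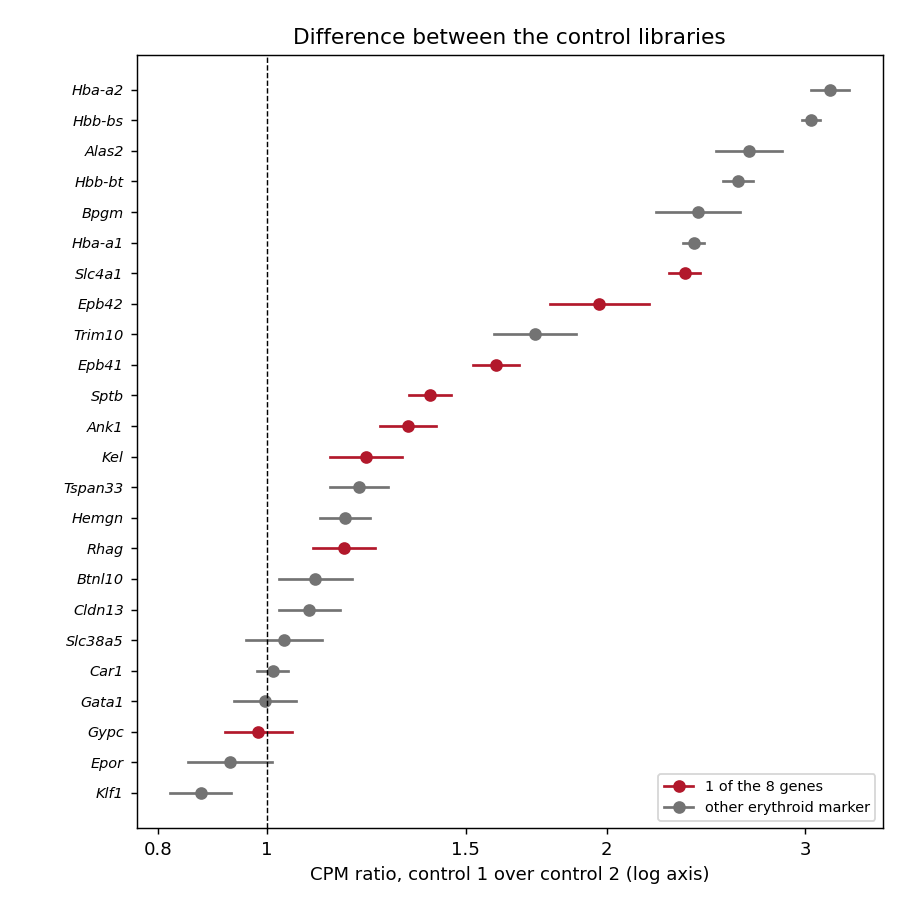
CPM ratio of control replicate 1 over replicate 2 on a log axis for the 8 genes (red) and 16 other erythroid markers (grey), sorted, with exact intervals for the counts (counting error only). The dashed line is a ratio of 1. Slc4a1 (2.35) lies next to the globin gene Hba-a1 (2.39), and Gypc (0.982) lies next to Gata1 (0.995).

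Of the 16 erythroid markers other than the 8 genes, 15 were called lower and 1 was not called, beside 19.7% of all genes called lower, and 12 passed the filter through the controls alone. The carbonic anhydrase gene Car1 and the genes Trim10 and Slc38a5 had 0 counts in every conditioned library, as Slc4a1, Rhag and Kel did. The gene that was not called was Gata1 (-4.79, adjusted p = 0.053), which was called lower without VpR126 (-7.90, adjusted p = 0.0016, range 0.0016 to 0.20) and also by voom (-7.51), with VpR99 thinned, or under upper-quartile or no scaling of library totals. Bpgm had 8.36 to 12.6 CPM in conditioned libraries, against 77.8 and 32.3 CPM in controls, and made up most of what remained of the list's summed level in VpR83, VpR99 and VpR2020.

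The genes whose profiles over the 6 libraries were nearest to those of the 8 genes were listed by Euclidean distance between centred log2 CPM values. Hbb-bt (0.7554), Car1 (0.905), Hba-a2 (1.18), Hbb-bs (1.81) and Cldn13 (2.74) were nearest to Slc4a1. Ndel1 (0.1699), Cep295nl (0.176), Gm9774 (0.229), Siah2 (0.237) and Eif5 (0.257) were nearest to Epb41. Being chosen by profile, these genes had a higher value in control replicate 1 than in replicate 2, as with 24.2 and 13.1 CPM for Siah2. Msra (0.198), Prkd2 (0.246), Gm16174 (0.254), Xrcc6 (0.301) and Pdcd1 (0.320) were nearest to Gypc, and Msra had 27.4 to 42.1 CPM in conditioned libraries, against 118 and 117 CPM in controls.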

How the data were processed

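The authors deposited 1 table of raw read counts per Ensembl mouse gene, not normalized, with 45706 identifiers and 6 libraries, 4 of conditioned and 2 of control medium. A TruSeq Stranded kit made the libraries, per the labels' protocols. The submitters' processing notes list Trimmomatic 0.38 and STAR 2.5.2b with build GRCm38. How reads were assigned to genes, and whether strand was used, is not given in the sources used here. GENCODE M21 gave symbols, coordinates and lengths for 45143 identifiers. Sptb shares 1 base with the opposite-strand gene Plekhg3, and the other genes that overlap the 8 hold at most 26 counts in all libraries together.

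The deposited counts were fitted with edgeR 4.0.16 under R 4.3.3 (filterByExpr at its defaults, TMM, robust quasi-likelihood fit, group as the only term, two-sided). Each SE was obtained from the fold change and its F statistic. Alternatives were RLE, upper-quartile and no scaling, no low-count filter, DESeq2 1.42.0, voom of limma 3.58.1, a fit that was not robust, VpR99 thinned, and each library left out. In simulated data for this layout (14461 genes), 100% of genes changed by 3 and 92.6% of genes changed by 1.5 on the log2 scale were recovered. Of the calls, 6.6% were false. The simulation gave every gene the same dispersion and changed few genes, whereas 42.2% were called in the data. Its shares therefore need not hold for the data. Intervals are exact at 95%. The 8 genes, the gene lists and the tests were chosen with earlier results of these data known. Named genes were the 8, genes of the lists (with list counts, where a few listed genes are not reported here), and the 5 nearest profiles of Slc4a1, Epb41 and Gypc. Of 17 erythroid markers 16 were matched. No replicate pair was tested, since the conditioned libraries carry no replicate number.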

Additional observations from a re-analysis of the deposited data

Results flagged for a closer look

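Among the 4 conditioned libraries, 75 genes with at least 10 reads there (from the 8 membrane genes, the gene lists and the megakaryocyte markers) were checked for a library far from the other 3, by its gap to the nearest of them as a part of the range (Dixon's 95% limit). Such a library was found for 14 genes. The limit lets through about 1 in 20 only for independent genes with normally distributed values. These genes share cell types and the same 4 libraries, so the count of 14 is a description and was not tested against chance. VpR126 was the one that stood apart for 10 of them. Its CPM were 11.4 for Sptb, 0.465 for Aqp1, 28.5 for Slc14a1, 0.465 for Hba-a1, 10.6 for Gata1 and 1.48 for Tspan33, and 154 for Itga2b, 16.3 for Gp9, 41.2 for Gp1ba and 13.4 for Gp1bb among megakaryocyte markers. The values of Aqp1 and Hba-a1 rest on 11 counts each. VpR83 stood apart with 295.5 CPM of Sptan1 and 76.1 CPM of Slc4a2, VpR99 with 29.8 CPM of Tgm1, and VpR2020 with 0.498 CPM of Slc4a3.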

How the results depend on the processing

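The calls of Sptb, Ank1, Epb42, Slc4a1, Gypc, Rhag and Kel held under all 14 alternatives each. Epb41 was not called under any of them, and its log2 fold change turned to 0.31 without control replicate 1. Leaving out 1 library at a time gave log2 fold changes of -0.34 to 0.31 for Epb41. It gave 1283 to 3657 genes called higher and 918 to 3374 called lower over all genes, 2 to 4 skeleton and adaptor genes called lower, 1 to 3 blood group carriers called higher, and 3 to 12 genes of the same families called higher and 1 to 3 lower. The lowest counts came without a control, where the lone control is assumed to vary like the conditioned libraries. With DESeq2, 2 skeleton genes were called higher in place of 1, the added gene being Stom (adjusted p = 0.031, range 0.031 to 0.28). With library totals only, the log2 difference of Gypc from the control mean was -2.28 (VpR83), -1.70 (VpR99), -1.96 (VpR126) and -2.50 (VpR2020), that of Epb41 in VpR83 was -0.12 in place of 0.07, and the ratio of the controls was 2.245 for Slc4a1 and 1.33 for Sptb. No paired analysis was possible because the conditioned libraries carry no replicate number in the labels. Counts of 0 limit Slc4a1, Rhag and Kel to bounds set by depth, chiefly that of VpR99.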

Other observations

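Transcripts of other red cell membrane proteins were compared per length. TPM carries no TMM factor here, so its difference between the groups can depart from that of the CPM above. Aqp1 had 0.1504 ± 0.238 TPM in conditioned medium (SD, n = 4) and 374.5 ± 44.3 TPM in controls (SD, n = 2), above the 204 ± 107 TPM of Slc4a1 in controls. Rhd had 0.366 ± 0.104 TPM in conditioned medium and 184.6 ± 16.5 TPM in controls. The adducins differed among themselves. Add1 had 77.9 ± 6.47 TPM in conditioned medium and 78.4 ± 0.368 TPM in controls. In TMM-scaled CPM every conditioned library of Add1 (211 to 239 CPM) lay below both controls (278 and 256 CPM). Add3 had 43.1 ± 8.44 TPM in conditioned medium and 74.1 ± 4.51 TPM in controls. Add2 had 0.0102 ± 0.00556 TPM in conditioned medium and 14.5 ± 0.165 TPM in controls.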
